A study of Capra hircus with 12 samples.

Results

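The miR-106b, miR-93 and miR-25 cluster was followed through the yearly growth cycle of the secondary hair follicle (SHF), the small follicle that grows cashmere. Its members were chosen by name, as every listed mature miRNA of miR-106b, miR-93 and miR-25 on either arm of the hairpin (5p or 3p). This gave 6 of the 376 listed miRNAs, listed with a goat prefix as chi-miR-106b-5p, chi-miR-106b-3p, chi-miR-93-5p, chi-miR-93-3p, chi-miR-25-3p and chi-miR-25-5p, and all 6 passed the filter on low counts that left 300 miRNAs for testing. miR-92b was not analysed here. The 12 libraries came from SHFs cut under a dissecting microscope from scapular skin of Liaoning cashmere goats aged 1.5 years, taken in 6 months, each month with 1 female and 1 male library. February and March stood for telogen, the resting phase (4 libraries), May for early anagen, when growth restarts (2 libraries), September for mid-anagen (2 libraries), and November and December for catagen, the regressing phase (4 libraries). The goats carried no genetic change or treatment, so month and sex were the factors that differed. The study took several goats of each sex at each time point, and how they were combined into libraries is not given in the sources used here, so p-values measure the spread between these libraries.

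The hairpins of the cluster lie together in an intron of MCM7, which encodes a subunit of the helicase that opens DNA for replication, and they are made from the host gene's transcript, which E2F factors drive in proliferating cells. In the goat gene annotation from RefSeq (assembly ARS1.2), MIR106B, MIR93 and MIR25 lie in that order within the span of MCM7. miR-106b-5p and miR-93-5p carry the seed of the miR-17 family, known to repress the cell cycle inhibitor CDKN1A and the pro-apoptotic BCL2L11, whereas miR-25-3p carries the seed of miR-92a. The cluster is a paralog of the miR-17-92 cluster and is also abundant in blood cells. Each hairpin gives 2 arms, one of which is usually kept by Argonaute while the other is degraded.

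The libraries held 3135292 to 5788032 miRNA counts (median 4469051), of which the 6 cluster members made up a small part. Reads carried no molecular identifiers, so intervals cover counting error only. The TMM factors, which correct library totals for composition, ran from 0.813 to 1.29, and the choice of scaling moved the median log2 fold change of all miRNAs by more than 0.1 in 5 of the 6 comparisons. From May to September, for example, this median was 0.07 with TMM and -0.46 with library totals. The deposited TPM values follow library totals, so fold changes below come from the TMM fit and library totals are given beside them where they change a call. Markers of epidermis (miR-200 family, miR-141, miR-203) summed to a TPM of 56735 to 96687 per library. Those of mesenchyme (miR-143, miR-145, miR-199 and miR-214) summed to 118318 to 148888, so none of the libraries lacked either set. In the second set miR-143-3p alone had a TPM of 67084 to 110365. The paper's in situ hybridization placed miR-143-3p in the matrix of the follicle, so this sum is not particular to connective tissue. In the epidermal set miR-203 alone had a TPM of 43797 to 82083. The same method detected miR-203 in the hair shaft, so the epidermal sum is not particular to the epidermis.

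The members differed widely in abundance. miR-25-3p held 54.7 to 82.7% of the counts of the cluster in a library, miR-93-5p held 13.1 to 38.1%, miR-106b-5p 2.22 to 6.82% and miR-106b-3p 1.19 to 1.99%. The minor arms were near the lower limit of detection, with 12 to 46 counts per library for miR-25-5p and 11 to 30 counts for miR-93-3p. Thus miR-106b was the one hairpin of the cluster with both arms well counted, and miR-93 and miR-25 were each read nearly from a single arm, the 5p arm for miR-93 and the 3p arm for miR-25.

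The arms of miR-106b moved in opposite directions over the cycle. miR-106b-5p, the arm with the miR-17 seed, was higher in February, March and May than in the autumn and winter months. Its TPM in telogen was 369 and 389 in the female and male February libraries, and 444 and 451.2 in those of March. In May it was 532 (female) and 454 (male), in September 161 and 188, in November 154 and 149, and in December 266 and 179. Every library of February to May lay above every library of September to December, with the female December library nearest to the first set. The mean TPM was 413 ± 40.7 (SD) over the 4 telogen libraries and 187 ± 54.4 over the 4 catagen libraries, with 493 ± 55.6 for the 2 of May and 175 ± 19.6 for the 2 of September.

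miR-106b-3p, the other arm of the same hairpin, ran the other way. Its TPM in telogen was 74.8 and 96.6 in February (female and male) and 77.8 and 105 in March. In May it was 104 and 97.9, in September 114 and 116, in November 129 and 125, and in December 121 and 118. All 6 libraries of September to December lay above all 6 of February to May, by a margin that was narrow on this scale. On TMM-scaled CPM, 3 of the 6 members (both arms of miR-106b and miR-25-3p) were separated in this way between February to May and September to December, as were 20% of all tested miRNAs. This split of the months was chosen after the values were seen. The mean TPM was 88.6 ± 14.7 (SD) over the 4 telogen libraries and 123 ± 4.89 over the 4 catagen libraries, with 101 ± 4.27 for the 2 of May and 115 ± 1.71 for the 2 of September.

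**Figure D1:**
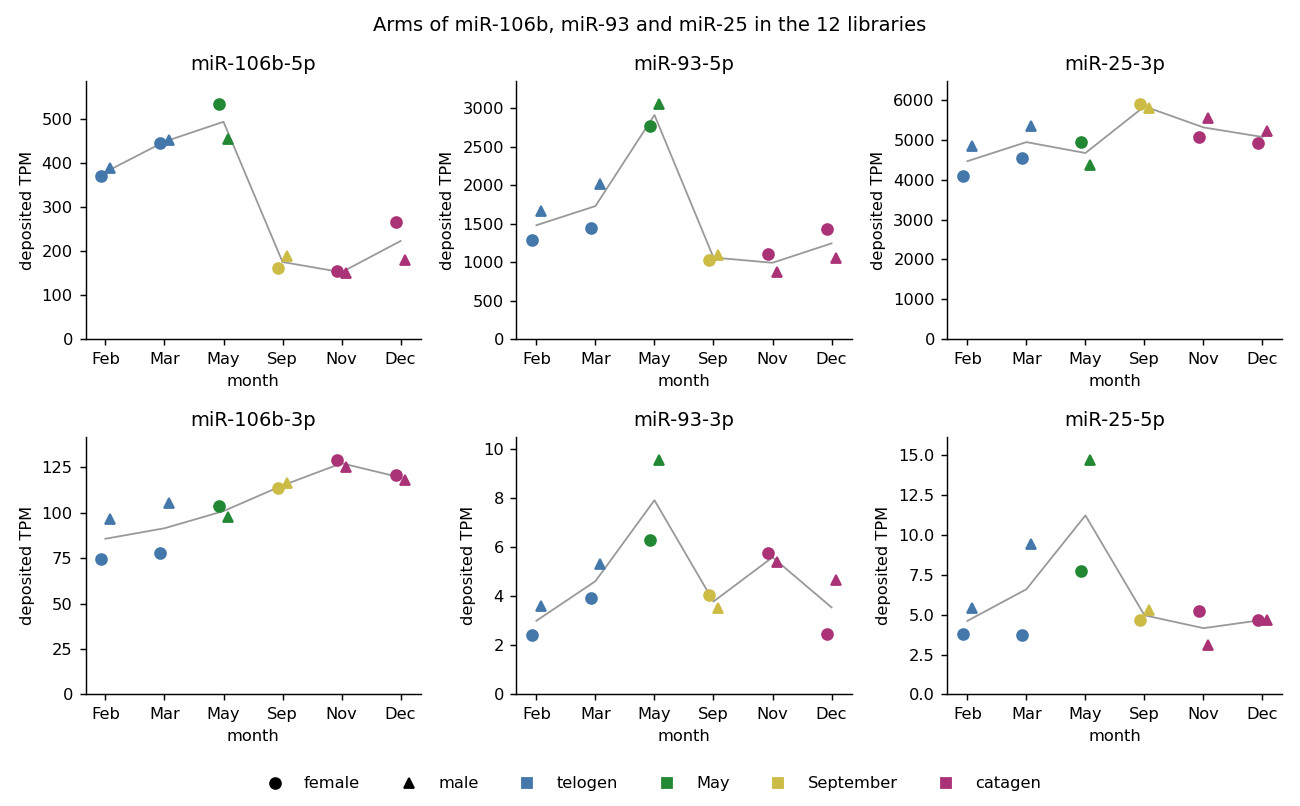
TPM of the 6 members (one panel each, linear axis) by month, with a symbol for the female and the male library of each month and a colour for each phase. The minor arms miR-93-3p and miR-25-5p lie at 2.42 to 9.57 and 3.09 to 14.67. miR-106b-5p falls from 454 to 532 in May to 161 to 188 in September, miR-106b-3p lies between 74.8 and 129 in all libraries, miR-93-5p has its highest values in May, and miR-25-3p varies least in proportion.

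The balance of the miR-106b arms was read within each library, where scaling plays no part. In telogen the 3p arm held 16.9% (95% Wilson interval 15.5 to 18.4%) and 19.9% (18.3 to 21.6%) of the miR-106b counts in the female and male February libraries. In the March libraries it held 14.9% (13.6 to 16.3%) and 18.9% (17.4 to 20.6%), and in those of May 16.3% (15 to 17.8%) and 17.8% (16.0 to 19.6%). In September the share was 41.5% (39.0 to 44.0%) and 38.2% (35.8 to 40.6%). The 3p arm thus took a larger part of the hairpin's reads in both September libraries than in any library of February to May. In November it held 45.6% (42.5 to 48.7%) and 45.7% (42.8 to 48.7%), and in December 31.2% (29.1 to 33.5%) and 39.8% (37.4 to 42.3%). The 2 sets of 6 libraries did not overlap. This split was chosen after the values were seen, and the share of all precursors separated in this way was not computed. Pooled over libraries each read of the 3p arm was matched by 4.72 reads of the 5p arm in telogen and 4.92 in May, against 1.51 in September and 1.55 in catagen.

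The log2 ratio of the 5p to the 3p arm was tested with limma over the precursors that had both arms listed and enough counts. It fell by 1.68 (SE 0.33, adjusted p = 0.0020) from May to September and fell by 1.63 (SE 0.29, adjusted p = 0.0015) from telogen to September. From catagen to telogen it rose by 1.67 (SE 0.23, adjusted p = 0.00031), which is 3.18-fold, and from May to catagen it fell by 1.72 (SE 0.29, adjusted p = 0.00072). Neither the difference from telogen to May (0.05, SE 0.29, adjusted p = 0.89) nor that from September to catagen (-0.04, SE 0.29, adjusted p = 0.99) passed. Changes of arm balance were common in these libraries, with 31.1% of the precursors called from May to September, 33% from telogen to September, 34.9% from catagen to telogen and 29.2% from May to catagen, against 0.943% from telogen to May and 0 from September to catagen. Within this background miR-106b ranked 1 by p and 3 by size among all precursors tested from catagen to telogen, 4 and 6 from telogen to September, 5 and 9 from May to catagen, and 9 and 17 from May to September. Its 4 calls held in each of the 12 fits that left out 1 library.

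**Figure D2:**
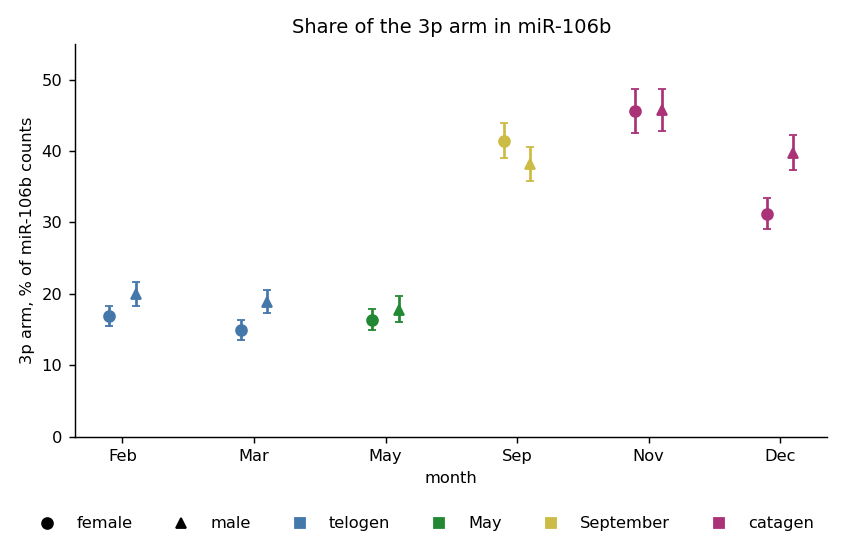
Share of miR-106b counts on the 3p arm (percent, linear axis) in each library by month, with bars for the 95% Wilson interval. The 6 libraries of February to May lie between 14.9 and 19.9% and the 6 of September to December between 31.2 and 45.7%.

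The other hairpins of the cluster gave less to compare, because their minor arms were rare. For miR-25 the log2 ratio of 5p to 3p fell by 1.42 (SE 0.43, adjusted p = 0.020) from May to September and fell by 1.41 (SE 0.37, adjusted p = 0.0084) from May to catagen. Both calls rested on the male May library, which had the highest miR-25-5p level (TPM 14.7, against 7.74 in the female May library and 3.09 to 9.44 elsewhere). Without it both differences were -0.87 and neither passed, and the first was also lost without the female September library (-1.31) and with only the 2 groups compared (-1.42). For miR-93 no comparison passed, the nearest being catagen to telogen (0.77, SE 0.33, adjusted p = 0.077). Without the female December library that difference was 1.15 and that from May to catagen -0.99, and both passed. The first also passed with 5 added to each arm (0.76) and in edgeR's test of arm by group (0.79). The change of miR-25 from telogen to May, 1.02 (SE 0.37, adjusted p = 0.094), passed under the same alternatives (0.95 and 1.02). miR-17 and miR-92a, hairpins of the paralogous miR-17-92 cluster, passed in none of the 6 comparisons either, with miR-92a nearest from catagen to telogen (-0.59, SE 0.23, adjusted p = 0.053). Whether miR-106b differed from these hairpins in its arm change was not tested.

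The edgeR fit of counts gave the same opposite directions for miR-106b. miR-106b-5p fell by 0.98 (log2 fold change, SE 0.23, adjusted p = 0.0075) from May to September, 1.97-fold and just under the 2-fold limit of a differentially expressed (DE) miRNA. It fell by 0.92 (SE 0.20, adjusted p = 0.0080) from telogen to September and fell by 0.85 (SE 0.19, adjusted p = 0.0045) from May to catagen, and rose by 0.80 (SE 0.16, adjusted p = 0.0030) from catagen to telogen. With library totals in place of TMM the 4 changes were larger, at -1.50, -1.24, -1.40 and 1.14, and all passed. The changes from May and telogen to September were lost without the female September library (-0.91 and -0.86).

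miR-106b-3p rose by 0.72 (SE 0.17, adjusted p = 0.0075) from May to September, by 0.71 (SE 0.14, adjusted p = 0.0040) from telogen to September and by 0.85 (SE 0.15, adjusted p = 0.0013) from May to catagen. From catagen to telogen it fell by 0.85 (SE 0.12, adjusted p = 0.000435). These calls depended on scaling. With library totals the last change (-0.48) still passed, while the first 3 were 0.19, 0.38 and 0.29 and did not. In the TMM fit the change from May to September was lost without either May library (0.55 without the female, 0.65 without the male) or the female September library (0.68) and with more than 5 CPM required in all 12 libraries (0.49), and that from telogen to September without the latter (0.68). Measured from the median of all miRNAs in the same comparison, the difference from May to September was 0.65 with TMM and 0.64 with library totals, so the scalings differed in where the median lay and not in the place of this arm relative to it.

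miR-93-5p, the most abundant arm with the miR-17 seed in the cluster, had a peak in May. Its TPM in telogen was 1289 and 1671 in February (female and male) and 1438 and 2021 in March. In May it was 2778 and 3052, in September 1027 and 1092, in November 1107 and 875, and in December 1433 and 1055. The May libraries lay above the other 10, and the telogen and catagen libraries overlapped. The mean TPM was 1605 ± 319 (SD) over the 4 telogen libraries and 1118 ± 232 over the 4 catagen libraries, with 2915 ± 194 for the 2 of May and 1059 ± 45.8 for the 2 of September.

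It rose by 0.67 (SE 0.16, adjusted p = 0.034) from telogen to May in the edgeR fit, 1.60-fold, and fell by 0.93 (SE 0.19, adjusted p = 0.0033) from May to September and fell by 0.83 (SE 0.16, adjusted p = 0.0019) from May to catagen. The rise was lost without either May library (0.88 without the female, 0.63 without the male) and without either February library (0.62 without the female, 0.68 without the male), and with only the 2 groups compared (0.69). From telogen to September the difference was -0.26 (SE 0.16, adjusted p = 0.25) and from catagen to telogen 0.15 (SE 0.13, adjusted p = 0.36). With library totals these were -0.60 and 0.52, and both passed.

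miR-25-3p, the most abundant member and the carrier of the miR-92a seed, varied least. Its TPM in telogen was 4095 and 4836 in February (female and male) and 4548 and 5340 in March. In May it was 4959 and 4381, in September 5890 and 5795, in November 5085 and 5543, and in December 4918 and 5227. The September libraries were the highest, and the telogen, May and catagen ranges overlapped. The mean TPM was 4705 ± 522 (SD) over the 4 telogen libraries and 5193 ± 265 over the 4 catagen libraries, with 4670 ± 409 for the 2 of May and 5842 ± 67.1 for the 2 of September.

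In the edgeR fit with TMM, miR-25-3p rose by 0.85 (SE 0.14, adjusted p = 0.0013) from May to September, by 0.65 (SE 0.12, adjusted p = 0.0029) from telogen to September and by 0.71 (SE 0.12, adjusted p = 0.0011) from May to catagen, and fell by 0.51 (SE 0.10, adjusted p = 0.0023) from catagen to telogen. With library totals the same 4 differences were 0.32, 0.31, 0.15 and -0.14, and none passed. In the TMM fit the rise from telogen to September was also lost without the female September library (0.58). Relative to the median miRNA the difference from May to September was 0.78 under both scalings. The change of miR-25-3p was therefore a change against the other miRNAs of the library, and its TPM alone gave overlapping groups in the comparison of telogen with catagen.

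**Figure D3:**
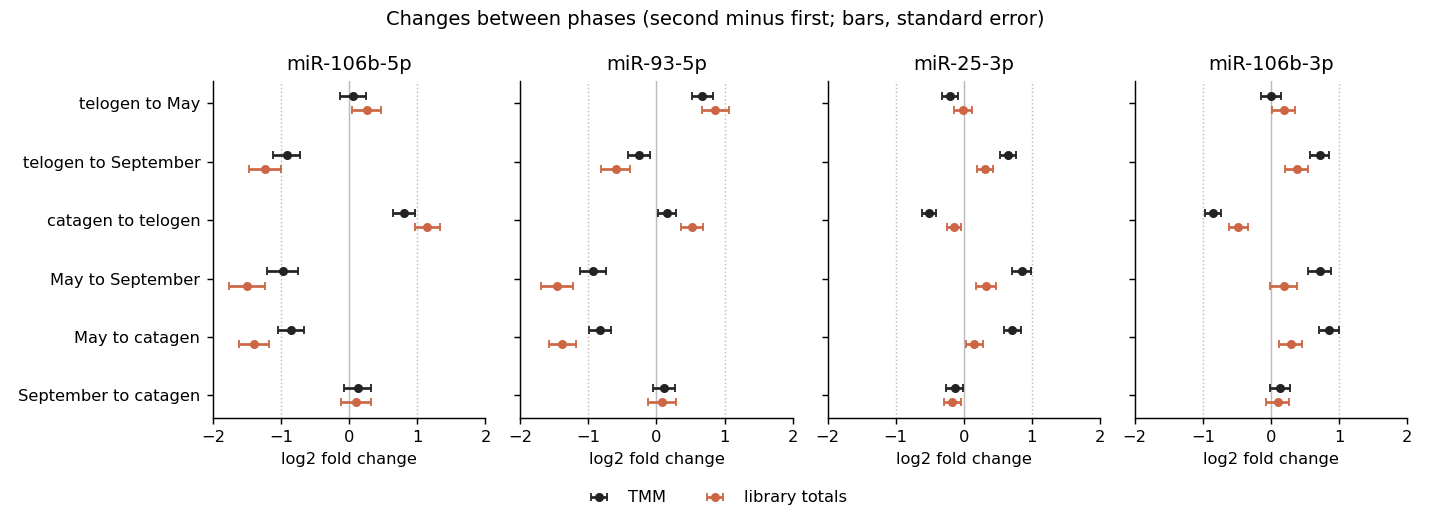
Log2 fold change (second phase minus first, bars for the standard error) of the 4 abundant members in the 6 comparisons, with TMM scaling and with library totals; dotted lines mark 2-fold. miR-106b-5p and miR-93-5p lie below 0 from May to September under both scalings (-0.98 and -0.93 with TMM), and miR-25-3p moves from 0.85 to 0.32.

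By the rule for DE miRNAs (adjusted p under 0.05 and at least 2-fold, edgeR), 0 of the 6 members were called in each of the 6 comparisons. The share of all 300 tested miRNAs called was 2.33% from telogen to May, 9.33% from telogen to September, 10.7% from catagen to telogen, 18.3% from May to September, 16.7% from May to catagen and 0 from September to catagen. At an unadjusted p under 0.05 the members numbered 3 from telogen to May (29.3% of all miRNAs), 3 from telogen to September (41.7%), 3 from catagen to telogen (47.3%), 4 from May to September (43.3%), 4 from May to catagen (50%) and 0 from September to catagen (7.67%). DESeq2 called 1 member from telogen to September, 1 from May to September and 0 in the other 4 comparisons. Without the limit on fold, 1 of 6 members passed from telogen to May (5.33% of all miRNAs), 3 from telogen to September (25.3%), 3 from catagen to telogen (35%), 4 from May to September (34%), 4 from May to catagen (37%) and 0 from September to catagen (0). From May to September the 6 members had a median difference of -0.57 (log2), against 0.07 for all miRNAs, and from catagen to telogen one of -0.28, against 0.00. These medians cover opposite movements, with 2 members higher and 2 lower among the 4 that passed from May to September. The median from May to September lay midway between miR-25-5p and miR-93-3p, the arms near the lower limit of detection. The minor arms miR-25-5p and miR-93-3p passed in none of the comparisons in the TMM fit of all libraries, with their smallest adjusted p, 0.11, from May to catagen. There miR-25-5p passed with library totals (-1.33), with only the 2 groups compared (-0.88) and without the female May library (-1.36). It also passed from telogen to May without the male March library (1.11), and miR-93-3p passed from catagen to telogen without the female December library (-0.87).

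Whether the members of one primary transcript kept their proportions was asked with ratios between members within a library, which need no scaling. In February and March there were 2.64 to 3.18 reads of miR-25-3p for each read of miR-93-5p. In May this fell to 1.79 (female) and 1.44 (male), and from September to December it was 3.43 to 6.33. The May libraries thus stood at one end and the later months at the other. For each read of miR-106b-5p there were 10.2 to 12.4 reads of miR-25-3p in telogen, 9.32 and 9.66 in May, 36.7 and 30.8 in September and 18.5 to 37.2 in catagen.

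The 2 phases with 4 libraries each were compared by exact permutation tests (two-sided, smallest possible p = 0.029). All 6 ratios among the 4 abundant arms were separated without overlap between telogen and catagen (exact permutation p = 0.029 each, adjusted p = 0.043 over 12 tests). The 6 ratios share 4 arms and are not independent. How often ratios of other miRNAs were separated in this way was not computed. Of the 5p to 3p ratios of all precursors tested with limma, 34.9% were called from catagen to telogen. The log2 ratio was higher in telogen by 1.33 for miR-106b-5p to miR-25-3p, by 0.67 for miR-93-5p to miR-25-3p and by 0.66 for miR-106b-5p to miR-93-5p. It was lower in telogen (difference of -0.34) for miR-106b-3p to miR-25-3p and (-1.01) for miR-106b-3p to miR-93-5p. The smallest of these differences was between miR-106b-3p and miR-25-3p, both of which were higher in catagen in the TMM fit. May was set against the other 10 libraries in the same way, where the exact permutation test can reach p = 0.015 at best. miR-93-5p to miR-25-3p was higher in May by 1.34, and miR-106b-3p to miR-93-5p differed by -1.28 (exact permutation p = 0.015 and adjusted p = 0.043 for both). The other 4 ratios did not pass, among them miR-106b-5p to miR-25-3p (difference 1.1, adjusted p = 0.081, exact permutation test). The adjusted values lie close to the threshold. With medians in place of means all 8 separated ratios had an adjusted p of 0.086 (exact permutation test). Between groups of 4 without overlap, exchanging the 2 values next to the gap leaves both medians unchanged. The exact permutation p of the telogen to catagen ratios was thus 0.057 and could not be smaller. Both May ratios kept an exact permutation p of 0.015. The medians therefore cannot tell whether the separations hold.

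**Figure D4:**
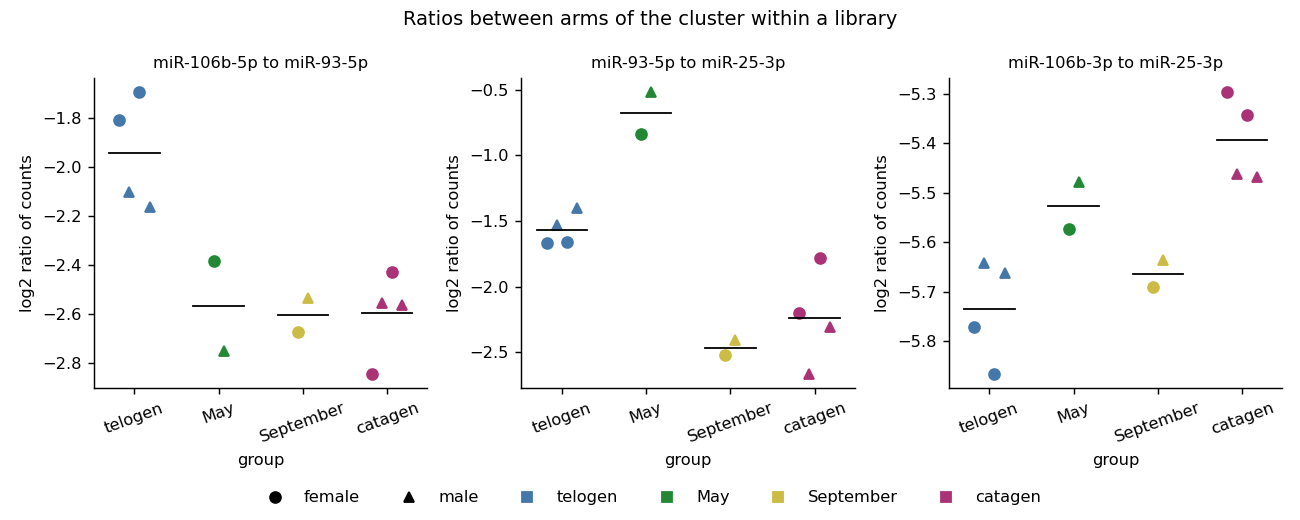
Log2 ratios of miR-106b-5p to miR-93-5p, miR-93-5p to miR-25-3p and miR-106b-3p to miR-25-3p within each library (one panel each). Libraries are grouped by phase, with a symbol for sex, a colour for phase and a line for the mean. The ratio of miR-93-5p to miR-25-3p is highest in both May libraries (-0.84 and -0.52). That of miR-106b-5p to miR-93-5p is higher in every telogen library than in any catagen library.

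Correlations between members over all 12 libraries are not given, because 3 of the 4 abundant arms fell into separate ranges for February to May and September to December. Within these sets of 6 libraries, and for the differences between the female and male library of each month, 0 of 18 relations between pairs of abundant arms had an adjusted p under 0.05 (exact permutation of Pearson's r and of Spearman's rho; 1 had an unadjusted p of Pearson's r under 0.05). The smallest adjusted p of Pearson's r was 0.35 (exact permutation, n = 6), so co-variation of the members within a season was not detectable with 6 libraries.

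The cluster was then placed among its relatives with the same seed. Together with miR-17-5p, miR-20a-5p, miR-20b and miR-106a-5p, the miR-17 seed was carried by 6 listed miRNAs, whose summed TPM averaged 13032 in May and 8013 in telogen, against 5110 in September and 5266 in catagen. miR-106b-5p and miR-93-5p together held 22.3 to 27.5% of this sum in all 12 libraries, while the sum itself ran from 4204 to 13404. The share of the cluster in this seed family varied little beside its total. miR-20a-5p was the largest carrier, with 46.2 to 55.9%, and miR-17-5p followed with 19.0 to 27.5%. Reads of near-identical family members, miR-106b-5p, miR-106a-5p, miR-20a-5p and miR-17-5p among them, could be shared between entries, and how they were assigned is not given in the sources used here.

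Of the 4 relatives with the miR-17 seed, 1 was DE from May to September (miR-17-5p, log2 fold change -1.11, SE 0.25, adjusted p = 0.0057) and 1 from May to catagen (miR-20b, -1.12, SE 0.35, adjusted p = 0.022). Without the limit on fold, 1 of 4 was higher from telogen to May (miR-17-5p, 0.83, adjusted p = 0.034), 1 was lower from telogen to September, 2 were lower from May to September and 3 from May to catagen, while 0 passed in the other 2 comparisons in edgeR (2 of 4 at an unadjusted p under 0.05 from catagen to telogen and 1 of 4 from September to catagen). Between May and September their median difference was -0.99 (log2). The miR-17 seed carriers that passed from May to September, in the cluster and outside it, were thus all lower in September.

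The miR-25 seed was carried by miR-25-3p, miR-92a-3p and the rare miR-363-3p. miR-25-3p held 45.1 and 46.6% of their summed TPM in the May libraries and 52.8 to 68.6% in the other 10. May was the month in which miR-92a-3p, with 53.3 to 54.8%, exceeded miR-25-3p in both libraries. Of the 2 relatives, miR-92a-3p rose by 0.92 (SE 0.25, adjusted p = 0.020) from telogen to September and fell by 0.75 (SE 0.22, adjusted p = 0.018) from catagen to telogen, in the same directions as miR-25-3p in the TMM fit. From May to September its difference was 0.19 (SE 0.30, adjusted p = 0.65). miR-363-3p, which lies outside the cluster, passed in none of the comparisons. Neither relative was DE by the 2-fold rule (at an unadjusted p under 0.05 there were 1, 1 and 2 of 2 from telogen to May, telogen to September and catagen to telogen, and 0 in the other 3).

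Since these miRNAs are abundant in blood, markers of blood cells were read in the same libraries. In these bulk samples fewer cells of a type and less RNA per cell cannot be told apart. The erythrocyte markers miR-451-5p and miR-144-5p summed to a TPM of 27.9 to 115 in telogen, 24.6 to 45.9 in May, 16.6 to 28.3 in September and 5.41 to 26.4 in catagen. Their sum was higher in each telogen library than in each catagen library, as was the TPM of miR-106b-5p, and 1 of 2 was DE (miR-451-5p, 1.45, SE 0.52, adjusted p = 0.048). The leukocyte markers miR-223-3p, miR-223-5p and miR-150 summed to 181 to 267 in telogen, 157 to 167 in May, 136 to 182 in September and 89.1 to 184 in catagen. Of these 3, 2 were DE and lower in May than in telogen (miR-223-3p, -1.64, SE 0.42, adjusted p = 0.039, and miR-223-5p, -1.59, SE 0.38, adjusted p = 0.034), opposite to miR-93-5p. From catagen to telogen 2 rose without the limit on fold, 1 of them DE, and from May to September 1 rose and was DE. From May to catagen none of these 5 markers passed. Their median log2 difference there was -0.76 for the erythrocyte markers and 0.36 for the leukocyte markers. None of the markers was at 0 over a whole group, and the part of blood cells in these results was not tested.

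The remaining lists moved with the phases as follows. Muscle markers (miR-1, miR-133a, miR-133b and miR-206, with 4 of 5 listed tested) summed to a TPM of 1809 to 3550. Of the 4 tested, 1, miR-1, was higher in September and in catagen than in May, and no other passed there. The median log2 difference of the 4 was -0.35 from May to September and -0.0062 from May to catagen. Both arms of miR-133a and miR-133b had a lower mean TMM-scaled CPM in September than in May. Endothelial markers (miR-126, both arms) summed to 8819 to 12699. None was DE in edgeR, but 1 of 2, miR-126-3p, was higher than in May at an adjusted p under 0.05 without the limit on fold, by 0.63 in September (SE 0.22, adjusted p = 0.045) and by 0.71 in catagen (SE 0.20, adjusted p = 0.013). The other arm, miR-126-5p, passed in neither, and its mean TMM-scaled CPM was lower in September (356) and catagen (413) than in May (568). The counts that follow are also without the limit on fold, as for the members. Of 6 epidermal markers, 1 was higher and 1 lower from telogen to September and from catagen to telogen, 1 was higher from May to September (miR-200a, 1.43, SE 0.23, adjusted p = 0.0013) and 2 were higher from May to catagen. Of 9 mesenchymal markers, 3 were higher and 3 lower from May to September, among them miR-143-3p (1.17, SE 0.20, adjusted p = 0.0013) and, in the other direction, miR-199a-3p (-0.85, SE 0.19, adjusted p = 0.0068). From May to catagen 2 were higher and 3 lower, from telogen to September 1 higher and 4 lower, from catagen to telogen 3 higher and 2 lower, and from telogen to May 1 was lower. The part of these cell types in the changes of the members in the same comparisons was not tested.

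No member passed between female and male libraries. With month as a term, 0 of 300 miRNAs were called between the sexes in edgeR (11.3% at an unadjusted p under 0.05), and the members' log2 differences (male minus female) lay between -0.18 for miR-106b-5p (SE 0.11, adjusted p = 0.54) and 0.33 for miR-25-5p (SE 0.26, adjusted p = 0.66). miR-106b-5p was higher in the male library in 1 of 6 months and miR-93-5p in 3 of 6. Whether the difference between telogen and catagen was larger in one sex was tested as an interaction, with miR-93-5p nearest (0.59, unadjusted p = 0.026, adjusted p = 0.18) and the other 5 members with an adjusted p of 0.30 or more.

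As a description of which miRNAs ran most like the members, Pearson's r of log2 CPM over the 12 libraries, which share depth and month, was highest with miR-15a-5p (0.961), miR-188-5p (0.950) and miR-30e-5p (0.940) for miR-106b-5p. For miR-93-5p it was highest with miR-17-5p (0.976), miR-107-3p (0.923) and miR-365-3p (0.915). For miR-25-3p it was highest with miR-378-3p (0.983), miR-195-3p (0.962) and miR-27b-3p (0.947). None of these lists holds another member of the cluster. These r include the difference between February to May and September to December and so do not show co-variation within a season. miR-106b-3p, added to this comparison after its values were seen, ran most like miR-27b-3p (0.966), miR-27a-5p (0.961) and miR-103-3p (0.959), so that miR-27b-3p stood among the nearest 3 of both miR-25-3p and miR-106b-3p.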

How the data were processed

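Small RNA libraries (NEBNext kit, Illumina sequencing) were made from SHFs of 12 library samples. Adapter trimming, mapping to CHIR_2.0 and quantification with Bowtie (0.12.9) were done by the authors, who deposited raw counts and TPM per miRNA. The deposited TPM differs from the count scaled to the library total by at most 0.005. Counts were tested in R 4.3.3 with edgeR 4.0.16 (TMM, quasi-likelihood test, more than 5 CPM in at least 2 libraries, 1 fit of 12 libraries with 4 groups, Benjamini-Hochberg adjustment over 300 miRNAs); SE was taken as the fold change on the log2 scale over the root of F. Arm ratios, log2((5p + 1)/(3p + 1)), were tested with limma 3.58.1 over precursors with both arms listed and at least 10 counts over both arms in every library. Ratios between members were tested by exact permutation (Python 3.11.15, scipy 1.17.1). Correlations used log2 CPM after TMM with a prior count of 1.

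The members and lists were chosen with earlier results of these data known. Named miRNAs are the members, their seed relatives, the marker lists and the 3 miRNAs most like each of miR-106b-5p, miR-93-5p and miR-25-3p; those most like miR-106b-3p were added after its values were seen. The tests were checked on simulated counts. Alternatives were DESeq2 1.42.0, the likelihood-ratio test, other scalings, filters, pseudocounts and sample sets, sex as a term, and each library left out in turn. The RefSeq table is of another assembly, so no coordinates are given. Sequencing batches are not given in the sources used here.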

Additional observations from a re-analysis of the deposited data

How the results depend on the processing

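The arm change of miR-106b kept its direction and its call in the 4 comparisons that passed under every alternative run (more counts per precursor, 5 added to each arm, edgeR's interaction of arm and group, only the 2 groups compared, sex as a term, each library left out). The number of DE members, 0 in all 6 comparisons, moved with the alternatives. From May to September it was 1 with DESeq2, with RLE normalization and with no filter, 2 with library totals, with more than 5 CPM in all 12 libraries and with only the 2 groups compared, 4 with no minimum fold change, and 0 to 2 with a library left out. From May to catagen it was 3 with library totals, 2 with more than 5 CPM in all 12 libraries, 4 with no minimum fold change and 0 to 2 with a library left out. From catagen to telogen it was 1 with library totals and 3 with no minimum fold change. From telogen to May it was 1 with no minimum fold change and 0 to 1 with a library left out (1 without the male March library). From telogen to September it was 1 with DESeq2, RLE normalization, library totals and more than 5 CPM in all 12 libraries, and 3 with no minimum fold change. The number of members with an adjusted p under 0.05 from May to September was 2 with library totals and 2 to 4 with a library left out (2 without the female September library). From telogen to May it was 0 with only the 2 groups compared and 0 to 2 with a library left out, and from telogen to September 0 to 3, with 0 without the female September library. The cause of these moves was not tested beyond the scaling values given with each member.

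Reversals of sign all concerned differences that did not pass. The difference of miR-106b-3p from telogen to May, -0.00066, was 0.00020 with the likelihood-ratio test, 0.00039 with sex as a term, 0.19 with library totals, 0.11 with more than 5 CPM in all 12 libraries, 0.027 with no filter, 0.017 with only the 2 groups compared and -0.033 to 0.094 with a library left out. miR-106b-5p from September to catagen ranged from -0.055 to 0.21 with a library left out. miR-25-5p from catagen to telogen was 0.030 with DESeq2 and with RLE normalization, 0.32 with library totals and -0.35 to 0.14 with a library left out, and from telogen to September -0.16 with library totals and -0.025 to 0.48. miR-93-3p from May to catagen ranged from -0.69 to 0.077. Arm ratios with a library left out ranged from -0.23 to 0.066 (September to catagen) and -0.022 to 0.15 (telogen to May) for miR-106b, from -0.10 to 0.19 (September to catagen) for miR-25, and from -0.54 to 0.058 (September to catagen) and -0.40 to 0.064 (telogen to May) for miR-93.

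Ratios between members kept their sign, but their adjusted p was near the threshold. With medians all 8 that had passed no longer did. For telogen minus catagen this was fixed in advance by the smallest p that medians allow (0.057, exact permutation test). Telogen minus catagen was then -0.31 for miR-106b-3p to miR-25-3p, -1.03 for miR-106b-3p to miR-93-5p, 1.77 for miR-106b-5p to miR-106b-3p, 1.44 for miR-106b-5p to miR-25-3p, 0.60 for miR-106b-5p to miR-93-5p and 0.66 for miR-93-5p to miR-25-3p. May minus the other 10 libraries was -1.45 for miR-106b-3p to miR-93-5p and 1.31 for miR-93-5p to miR-25-3p. With a library left out the same 8 ranged from -0.37 to -0.30, -1.15 to -0.90, 1.57 to 1.86, 1.2 to 1.54, 0.57 to 0.73, 0.53 to 0.82, -1.39 to -1.17 and 1.18 to 1.49. Each lost its call in some of these fits. Some losses were fixed in advance, since 1 May library against the other 10 cannot reach an exact permutation p under 0.05. Without a May library the telogen minus catagen ratios kept their differences and their exact permutation p of 0.029, and only the adjustment over the 12 tests changed. miR-106b-5p to miR-25-3p in May ranged from 1.01 to 1.22 and passed without the female February or the female March library.

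No paired analysis was possible because the labels give no replicate numbers, and sex as a term was fitted in its place. The planned correlations over the 10 libraries other than May, and without the 2 farthest libraries, were not run, since the levels fell into separate ranges by season. The 2 libraries each of May and September, and counts of 11 to 46 for the minor arms, limit the precision.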
